A study of Mus musculus with 2 samples.

Results

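A set of 10 cartilage matrix genes was followed through single cells of GL261, a mouse glioma line from C57BL/6 that the labels class as astrocytoma. The genes were Matn1, Comp, Col2a1, Col9a1, Col9a3, Col10a1, Col11a1, Col11a2, Cytl1 and Acan, out of 32285 genes in the deposited matrices. They were picked by symbol with earlier values from these 2 libraries known, so the difference between cultures and the overlap within cells are given here as descriptions and were not tested.

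One library came from cells grown adherently in DMEM with 10% FBS. The other came from neurospheres, free-floating aggregates collected at day 12 after EGF (20 ng per ml), FGF (20 ng per ml) and B-27 were added to the same medium. Per the labels both were treated with trypsin, the neurospheres with trituration through ever finer pipettes as well, and both were frozen before library construction with the 10x Genomics 3′ chemistry, in which each unique molecular identifier (UMI) stands for 1 captured transcript. The study's methods name trypsin for the collection of the adherent cells only. With 1 library per culture there is no replicate, so no p-value or SD can be given, and culture, growth factors, dissociation and library cannot be told apart. All intervals below are exact 95% intervals that cover counting error only.

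The matrices held 5764 adherent and 4951 neurosphere cells. After mitochondrial and ribosomal protein genes were taken out and shallow cells removed, 5051 and 4276 cells remained with medians of 8260 and 13198.5 UMIs. The kept cells held 46290996 adherent and 64943938 neurosphere UMIs. Levels are given as CPM, a gene's UMIs scaled to a common library total, and shares of cells were computed after each cell was thinned to 5000 UMIs, which 4464 adherent and 4196 neurosphere cells allowed. The 2 libraries shared 12 barcodes. As a check of the line, the oligodendrocyte lineage genes Olig1, Olig2 and Sox10 were present in both cultures, and their list of 7 precursor markers summed to 435 and 2130 CPM. The 7 astrocyte markers summed to 556 and 349 CPM, mostly from Slc1a3 and S100b, while Gfap had 30 adherent and 27 neurosphere UMIs and Aqp4 had 0 in both.

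Cartilage is built on thin fibrils in which collagen II is the main component, collagen XI sits within the fibril and collagen IX decorates its surface. Collagen X is made by hypertrophic chondrocytes at the end of their life in the growth plate. Matrilin 1 and COMP are adaptor proteins that link fibrils to other matrix proteins, aggrecan is the large chondroitin sulfate proteoglycan that holds water, and Cytl1 is a small secreted protein found in cartilage. In chondrocytes many of these genes are switched on by SOX9 together with SOX5 and SOX6. Some collagens of this family, such as collagen XI chains, are also made outside cartilage.

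The collagen chains carry a long triple helix in which glycine recurs at a fixed spacing, and in the fibrillar and related genes this repeat is built from exons of 54 bases. In the GENCODE M21 annotation of GRCm38, exons of exactly 54 bases made up 24 of 54 coding exons in Col2a1, 31 of 67 in Col11a1, 31 of 66 in Col11a2, 14 of 38 in Col9a1 and 14 of 32 in Col9a3. Each of these 54-base exons carried a GGN codon, which codes for glycine, once every 9 bases. Col10a1, whose helix lies in 1 long exon, had 0 of 2 coding exons of this length. The first such exon of each gene is shown because it is the sequence feature that 5 of the members have in common, and the capitals mark the 6 GGN codons that stand at this spacing.
Col2a1: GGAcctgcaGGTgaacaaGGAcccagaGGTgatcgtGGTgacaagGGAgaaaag
Col9a1: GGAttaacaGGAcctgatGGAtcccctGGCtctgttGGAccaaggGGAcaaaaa
Col9a3: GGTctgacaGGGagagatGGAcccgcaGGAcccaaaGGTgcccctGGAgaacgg
Col11a1: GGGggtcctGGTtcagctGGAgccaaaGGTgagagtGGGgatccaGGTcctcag
Col11a2: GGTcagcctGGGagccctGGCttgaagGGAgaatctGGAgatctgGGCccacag
These exons lie at chr15:97998545-97998598 on the minus strand (exon 6 of 54), chr1:24202014-24202067 (exon 11 of 38), chr2:180601582-180601635 (exon 5 of 32), chr3:114108281-114108334 (exon 15 of 67) and chr17:34051480-34051533 (exon 15 of 66), all but the first on the plus strand. Exon lengths that are a multiple of 9 bases made up 83.3% of the coding exons of Col2a1, 80.6% of Col11a1, 78.8% of Col11a2, 65.6% of Col9a3 and 57.9% of Col9a1, against a median of 12.5% over 7425 protein-coding genes with at least 10 coding exons.

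The 10 genes lie on 10 different chromosomes, so no pair of them are neighbours. The RefSeq promoter table for GRCm38.p6 held windows for 7 of the 10 genes. The 250 bases before the annotated start are shown for Matn1, Cytl1 and Col10a1, because these members had 0 to 11 adherent UMIs. Capitals mark CAAAG or its reverse complement, letters found in many SOX binding sites, and TATAAA, the letters of a TATA box.
Matn1: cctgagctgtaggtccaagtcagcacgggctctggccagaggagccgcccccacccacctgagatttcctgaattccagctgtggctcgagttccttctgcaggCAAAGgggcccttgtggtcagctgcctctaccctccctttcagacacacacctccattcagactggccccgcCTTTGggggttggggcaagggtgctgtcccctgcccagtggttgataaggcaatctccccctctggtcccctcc
Cytl1: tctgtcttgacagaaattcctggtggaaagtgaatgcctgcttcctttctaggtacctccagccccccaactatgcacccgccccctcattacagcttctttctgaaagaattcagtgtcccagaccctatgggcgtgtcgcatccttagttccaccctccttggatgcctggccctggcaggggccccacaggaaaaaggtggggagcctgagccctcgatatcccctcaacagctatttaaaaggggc
Col10a1: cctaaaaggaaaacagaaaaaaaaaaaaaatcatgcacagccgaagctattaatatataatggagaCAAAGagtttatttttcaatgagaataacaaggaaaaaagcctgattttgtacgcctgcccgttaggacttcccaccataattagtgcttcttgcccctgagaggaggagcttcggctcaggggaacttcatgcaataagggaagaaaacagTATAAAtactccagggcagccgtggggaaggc
They span chr4:130944135-130944384, chr5:37735269-37735518 and chr10:34389731-34389980, each on the plus strand. CAAAG stood on either strand in 5 of the 7 members with a window, and in 48.6% of all 32851 windows of this length. TATAAA was in the windows of Col10a1, 32 bases before the start, and Col11a2, against 12.4% of all windows, and ACAAT was in none of the members' windows and in 27.7% of all. None of the matches shown overlap, and each is a match of letters only.

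Between the cultures, 8 of the 10 genes were more than 2-fold higher in the neurosphere library and 0 were more than 2-fold lower. Over all 14654 genes with at least 50 UMIs, 21.7% were past 2-fold in the higher direction and 11.7% in the lower direction. Because the members were picked with this difference known, nothing is read from these shares. Summed over the members, the level was 720 CPM (712 to 728) in the adherent library and 4005 CPM (3990 to 4021) in the neurosphere library, a log2 ratio of 2.48 (2.46 to 2.49). Col11a1 gave most of these UMIs in both libraries, and without it the sum was 182 and 1801 CPM, a log2 ratio of 3.31 (3.28 to 3.34). The median log2 ratio over the members was 3.48, with the genes at 0 set to a floor of 3 counts, and over all genes tested it was 0.32.

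**Figure D1:**
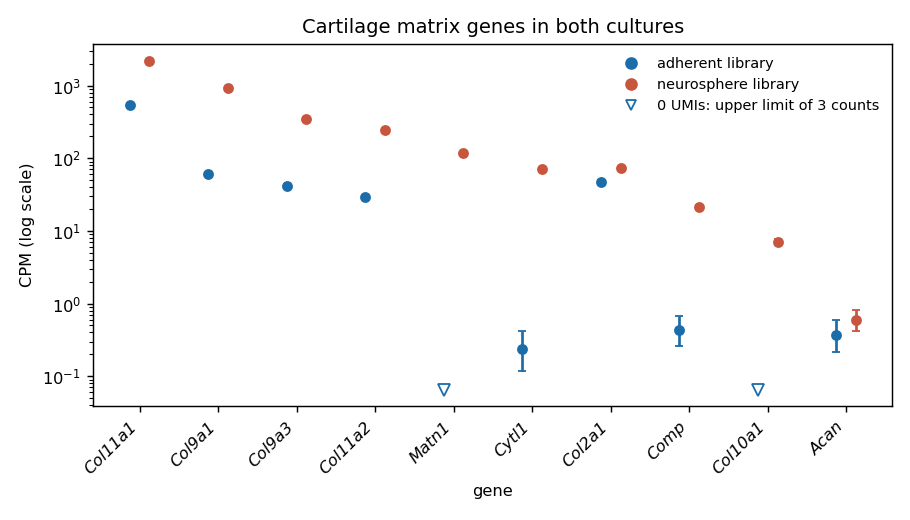
The level of each gene in CPM (log axis) in the adherent (blue) and neurosphere (red) library, 1 library each, with bars for the 95% Poisson interval. Open triangles stand for 0 adherent UMIs and sit at the upper limit of 3 counts. Matn1, Cytl1, Comp and Col10a1 are under 1 CPM in adherent cells and between 6.94 and 117 CPM in neurosphere cells, while Acan is under 1 CPM in both.

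Among the fibril collagens, Col11a1, which encodes the first chain of collagen XI, was at 539 CPM (532 to 545) in the adherent library and 2204 CPM (2193 to 2216) in the neurosphere library. Its log2 ratio was 2.03 (2.01 to 2.05). Col11a2, the second chain, was at 29.7 CPM in the adherent library and 246 CPM in the neurosphere library, a log2 ratio of 3.05 (2.97 to 3.13). Both chains of collagen XI that were followed were therefore present in each culture and higher in the neurosphere library.

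The 2 collagen IX genes followed the same direction. Col9a1 was at 61.2 CPM (59.0 to 63.5) in the adherent library and 917 CPM (910 to 925) in the neurosphere library, a log2 ratio of 3.91 (3.85 to 3.96). Col9a3 was at 41.8 CPM and 347 CPM, a log2 ratio of 3.05 (2.99 to 3.12). The third chain of the same molecule, Col9a2, was not among the 10 genes and is given below. Col9a3 overlaps Tcfl5, a gene on the other strand with 1 and 25 UMIs, by 234 bases.

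Col2a1, the chain that forms the bulk of cartilage fibrils, differed least among the collagens. It was at 47.8 CPM (45.8 to 49.8) in the adherent library and 73.3 CPM (71.2 to 75.4) in the neurosphere library, a log2 ratio of 0.62 (0.54 to 0.69), which is under 2-fold. In UMIs this was 2211 and 4760.

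Col10a1, the collagen of hypertrophic chondrocytes, had 0 adherent UMIs and 451 neurosphere UMIs, or 6.94 CPM (6.32 to 7.62). With the floor of 3 counts in place of 0 it was 107-fold higher in the neurosphere library, a log2 ratio of 6.74 that was 5.45 in thinned cells. The exact lower limit of this log2 ratio was 6.44. The UMIs came from 65 of 4276 neurosphere cells, and 1 cell alone held 49 of them. Col10a1 lies wholly within Nt5dc1, a gene on the other strand that had 711 adherent and 1887 neurosphere UMIs.

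The adaptor proteins were almost absent from the adherent library. Matn1 had 0 UMIs in the adherent library and 7603 in the neurosphere library, 117 CPM (114 to 120). With the floor of 3 counts in place of 0 it was 1806-fold higher, a log2 ratio of 10.82 that was 10.12 in thinned cells. The exact lower limit of this log2 ratio was 10.52. Comp had 20 adherent and 1405 neurosphere UMIs, 0.432 CPM (0.264 to 0.667) and 21.6 CPM (20.5 to 22.8), a log2 ratio of 5.65 (5.01 to 6.36) that was 4.58 without the leading cluster of each library. Cytl1, the secreted protein, had 11 adherent UMIs in 3 cells, 9 of them in 1 cell. In the neurosphere library it had 4637 UMIs, 71.4 CPM (69.4 to 73.5), a log2 ratio of 8.23 (7.39 to 9.23).

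Acan, the core protein of aggrecan, was close to the limit of detection in both libraries. It had 17 adherent UMIs (0.367 CPM, 0.214 to 0.588) and 38 neurosphere UMIs (0.585 CPM, 0.414 to 0.803). The log2 ratio of 0.67 (-0.19 to 1.59) had an interval that included 0, so no difference was detectable at this depth.

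The share of cells in which a gene was seen split the members into a broad and a restricted group, a grouping that was made after the values were seen. Col11a1 was seen in 83.7% of adherent and 97.5% of neurosphere cells after thinning. Col9a1 was seen in 24.6% and 87.6%, Col9a3 in 18.2% and 66.1%, and Col11a2 in 14.1% and 63.9%. These 4 broad genes were each in most neurosphere cells. No other member reached 30% of neurosphere cells.

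The restricted genes were Matn1, Cytl1, Col2a1, Comp and Col10a1. Matn1 was in 25.2% (23.9 to 26.6) of neurosphere cells and in 0 of 4464 adherent cells, which with 3 counts as the limit allows up to 0.0672% of cells with a UMI at this depth. It does not limit the share of cells that express the gene. Cytl1 was in 17.99% of neurosphere and 0.0672% of adherent cells, and Comp in 7.72% and 0.246%. Col10a1 was in 0.810% (0.562 to 1.13) of neurosphere cells and in 0 adherent cells. Col2a1 was the exception, at 14.4% (13.4 to 15.5) of adherent and 17.6% (16.4 to 18.8) of neurosphere cells. Acan was in 0.202% and 0.191%.

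Without thinning most of these shares were larger, as each cell then kept all of its UMIs. The adherent share of Cytl1 was not, at 0.0594% from 3 cells, and Matn1 and Col10a1 stayed at 0 adherent cells. Matn1 was then in 36.9%, Cytl1 in 28.1%, Col2a1 in 29.4% and Comp in 13.1% of neurosphere cells, and Col2a1 in 20.0% of adherent cells. With a single line in each culture, free RNA could not be gauged from cells known to lack these genes. The part of free RNA in the low shares was not tested.

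**Figure D2:**
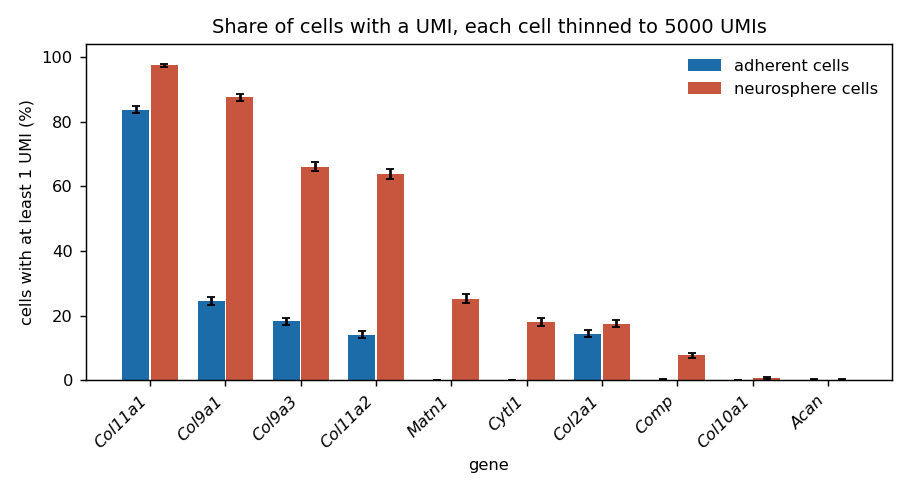
The percent of cells with at least 1 UMI of each gene, with each cell thinned to 5000 UMIs, in 4464 adherent (blue) and 4196 neurosphere (red) cells, with 95% Clopper-Pearson intervals as bars. Col11a1, Col9a1, Col9a3 and Col11a2 are in most neurosphere cells, Matn1, Cytl1, Col2a1 and Comp in 7.72% to 25.2%, and Col10a1 and Acan in under 1%.

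Several members were uneven from cell to cell. In thinned neurosphere cells the variance of Col2a1 was 10.2 times its mean, that of Matn1 7.75 times, that of Col10a1 7.09 times, that of Comp 5.53 times and that of Cytl1 3.70 times, where counting alone gives a ratio of 1. The broad genes had ratios of 8.42 (Col11a1), 5.86 (Col9a1), 3.11 (Col9a3) and 1.99 (Col11a2), so this ratio did not separate the broad from the restricted genes. The top 1% of neurosphere cells held 35.8% of Col2a1 UMIs, 24.3% of Matn1 UMIs and 46.4% of Comp UMIs, against 4.39% for Col11a1. Such shares are also higher for genes seen in fewer cells, as these restricted genes were. Before thinning, single neurosphere cells held up to 175 UMIs of Matn1, 88 of Col2a1, 53 of Cytl1 and 31 of Comp.

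Col2a1 had the same uneven pattern in adherent cells. Its ratio of variance to mean was 2.82, and the top 10% of adherent cells held 82.5% of its UMIs. A gene seen in few cells has a high share of this kind in any case. Adherent Col11a2, with a ratio of variance to mean of 1.07, had 74.0%. One adherent cell held 34 UMIs before thinning. In a ranking of variable genes within each library, Col2a1 was at rank 39 in adherent and rank 14 in neurosphere cells. Col10a1 was at rank 10, Matn1 at 35, Comp at 68 and Cytl1 at 91 in the neurosphere library, while Col11a1 and Col11a2 were not among the variable genes selected there.

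A typical neurosphere cell held transcripts of several members. Of the thinned neurosphere cells, 85.6% (84.5 to 86.6) had 3 or more of the 10 genes and 30.6% (29.2 to 32.0) had 5 or more. In the adherent library the shares were 15.5% (14.5 to 16.6) and 0.426% (0.256 to 0.664). All 4 broad genes were together in 42.1% of neurosphere and 1.10% of adherent cells. The highest number in 1 cell was 8, in 6 neurosphere cells, and no adherent cell had more than 5. Without the cells over the 95th percentile of UMIs, among which doublets would be likeliest, 86.0% of neurosphere cells had 3 or more.

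**Figure D3:**
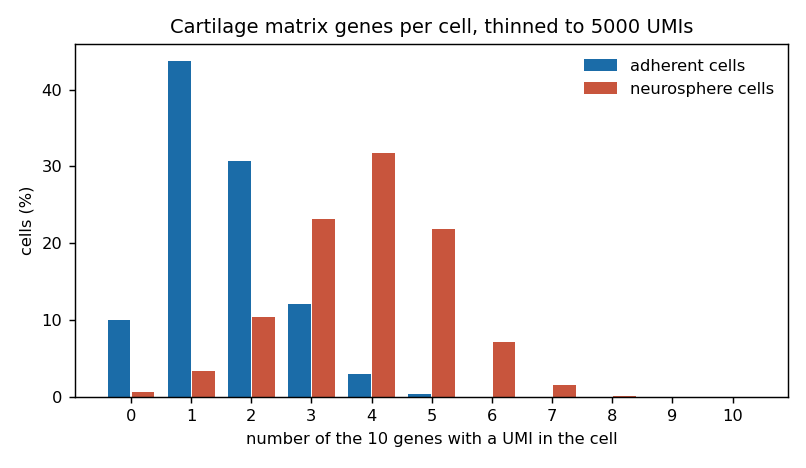
The percent of thinned cells by the number of the 10 genes with a UMI, in adherent (blue) and neurosphere (red) cells. The adherent cells peak at 1 gene with 43.8% of cells, and the neurosphere cells at 4 genes with 31.7%.

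Without Col11a1, which alone was in nearly all cells, 62.8% of neurosphere cells still had 3 or more of the other genes, against 3.65% of adherent cells. Few cells had more than 1 of the restricted genes, each of which was in 25.2% of neurosphere cells or fewer. What these low shares alone would give was not computed for the number of genes per cell. Pairs are set beside the product of their shares below. None of the 5 was seen in 47.1% of neurosphere cells, 1 was seen in 38.9%, 2 in 11.7%, 3 in 2.14% and 4 in 0.143%. In adherent cells 0.134% had 2 of them.

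Within neurosphere cells the broad genes varied together to a modest degree. Over 4196 thinned cells, Pearson's r of log-normalized values was 0.39 between Col11a1 and Col11a2, which encode chains of the same molecule. It was 0.32 between Col9a1 and Col11a1, 0.29 between Col9a3 and Col11a2, 0.27 between Col9a1 and Col11a2 and 0.22 between Col9a1 and Col9a3. In 4464 adherent cells the same pairs had r from 0.05 to 0.17, at lower counts. All values of a cell share its library, depth and composition, and sparse counts lower r.

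Matn1 had its largest r with Col9a3 (0.23), then with Col11a1 and Col11a2 (0.19 each). With Comp its r was 0.10, and with the other restricted genes it was close to 0 or below. Matn1 and Cytl1 met in 149 neurosphere cells, where the product of their shares gives 190.5, a ratio of 0.782 with an r of -0.06. Matn1 and Col2a1 met in 162 cells against 186.0 from the product.

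**Figure D4:**
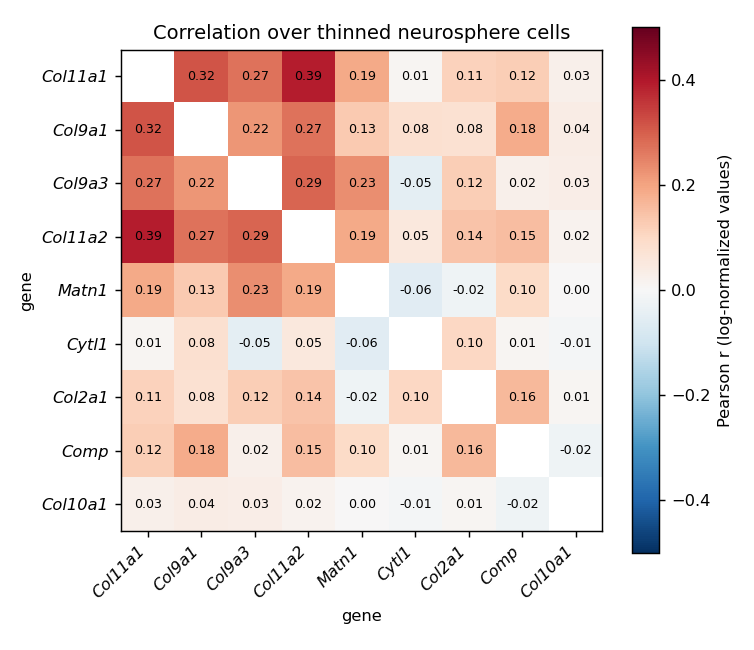
Pearson's r between pairs of members over 4196 neurosphere cells thinned to 5000 UMIs, from blue (negative) to red (positive). The 4 broad collagen genes at the upper left have r from 0.22 to 0.39 with one another, Cytl1 and Col10a1 are near 0 with most genes, and Acan is left out because it was in 8 cells.

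Comp met Col2a1, Matn1 and, by a small margin, Cytl1 more often than the product of shares gives. It was with Col2a1 in 100 cells against 56.9 from the product, a ratio of 1.76, and with Matn1 in 115 against 81.8, a ratio of 1.41. With Cytl1 it was in 63 cells against 58.3, a ratio of 1.08. Col2a1 met Cytl1 in 185 cells against 132.6, a ratio of 1.40. Col10a1 was seen in 34 thinned cells, all of which also had Col11a1 and 33 of which had Col9a1, while 0 had Comp where the product gives 2.63. In adherent cells, Col2a1 met Col9a1 in 230 cells against 158.4, and 7 of the 9 cells with Acan had Col2a1 where the product gives 1.30.

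Cells with more restricted genes also held more of the broad ones. The summed mean of the 4 broad genes was 17.9 UMIs per 5000 in the 1977 neurosphere cells with none of the restricted genes, 22.8 in the 1631 with 1, 28.8 in the 492 with 2 and 33.6 in the 96 with 3 or more. Other cartilage matrix genes went from 1.88 to 3.49 UMIs per 5000 over the same bins. So did lists that are not of cartilage, with astrocyte markers at 1.70 and 3.99 and brain proteoglycans at 3.10 and 5.34. Oligodendrocyte precursor markers were at 11.3 and 10.4. Markers of G2 and mitosis went the other way, from 10.7 to 5.50. The median UMIs before thinning were 14534 with none of the restricted genes, 12512 with 1, 11031 with 2, 11102.5 with 3 and 12234.5 with 4. The part of cell cycle and of depth in this was not tested.

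Most members were lower in neurosphere cells with more cell cycle transcripts and greater depth, while Cytl1 and Col10a1 followed neither closely (r between -0.03 and 0.03 over 4196 cells). In the 1530 neurosphere cells with 0 or 1 UMI of G2 and mitosis markers, the members summed to 31.6 UMIs per 5000, against 17.2 in the 1529 cells with 10 or more. Comp was at 0.337 and 0.0458, Matn1 at 1.21 and 0.390, Col2a1 at 0.776 and 0.292, and Col9a1 at 6.72 and 4.11. Cytl1 was at 0.413 and 0.308, with 0.451 in the 1137 cells between these bins. Col10a1 was at 0.0222 and 0.0190 in the outer bins and 0.0528 in the cells between, where it was seen in 1.58% of cells. In adherent cells the same bins had sums of 4.61 and 3.55.

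By depth before thinning, the lowest tertile of neurosphere cells held 32.0 member UMIs per 5000 and the highest tertile 16.4. In adherent cells the values were 4.29 and 3.23. For the sum, every bin of neurosphere cells was thus above every bin of adherent cells. For Col2a1 it was not, with 0.227 in the highest neurosphere tertile and 0.284 in the lowest adherent one. These bins hold only cells with at least 5000 UMIs, which left out 587 adherent and 80 neurosphere kept cells. A cluster of 48 adherent cells with a median of 2623.5 UMIs summed to 4134 CPM, against 4005 CPM in the whole neurosphere library. The order of the bins therefore covers the deeper cells only. The G2 and mitosis markers themselves stood at 2656 CPM in the adherent library and 2361 CPM in the neurosphere library. Of these, 0 of 10 were past 2-fold in either direction, beside 21.7% of all genes higher and 11.7% lower.

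Clustering within the neurosphere library gave 10 clusters, in which the members took part among the variable genes, so their levels by cluster are a description. Cluster 1, with 589 cells (13.8%), had the highest summed level, 8971 CPM, and held 17.3% of all member UMIs. Its median depth was 7623 UMIs, its median mitochondrial share before removal was 4.85% and its G2 and mitosis markers were at 112 CPM. Cluster 5, at the other end, had 1765 CPM of the members, a median of 21048 UMIs and 3249 CPM of these markers.

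The members did not all peak in the same cluster. Cluster 1 held 55.9% of Comp UMIs (157 CPM) and 29.2% of Matn1 UMIs (443 CPM), and also led for Col9a1, Col9a3, Col11a1 and Col11a2. Col2a1 was highest in cluster 4 (178 CPM), followed by cluster 1 (155 CPM). Cytl1 was highest in cluster 2 (94.9 CPM). Col10a1 was highest in cluster 6 (23.1 CPM), where 1.27% of 394 cells had it before thinning, while cluster 0 held 33.7% of its UMIs and cluster 3 the largest share of cells with it (2.90%). Matn1 ranged from 22.5 to 443 CPM across the clusters, and Cytl1 from 28.6 to 94.9 CPM. When the members were left out of the variable genes, giving 12 clusters, the range was 14.4 to 427 CPM for Matn1 and 32.7 to 152 CPM for Cytl1, and Col2a1 peaked at 436 CPM in a cluster of 244 cells.

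**Figure D5:**
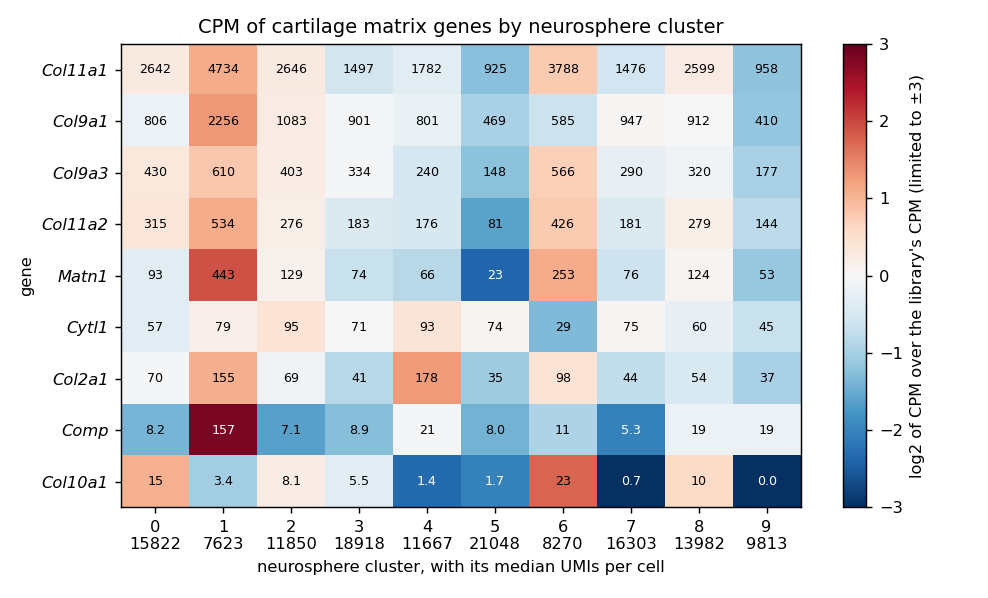
The CPM of 9 members (numbers in the cells) in each of 10 neurosphere clusters, coloured by the log2 of the level over that of the whole library and labelled below with each cluster's median UMIs per cell. Comp and Matn1 are highest in cluster 1, Col2a1 in cluster 4 and Col10a1 in cluster 6.

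In the adherent library the highest summed level, 4134 CPM, was in cluster 9. It had 48 cells with a median of 2623.5 UMIs and a median mitochondrial share of 12.3%, and held 1.64% of member UMIs. Among the larger adherent clusters, cluster 2 (718 cells) had the highest sum, 1150 CPM, with Col2a1 at 119 CPM against 2.17 CPM in cluster 8. Cluster 2 had 605 CPM of the G2 and mitosis markers, where cluster 1 had 5645 CPM.

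The genes whose values were most like the summed members over neurosphere cells were Mdga2 (r = 0.51), Macrod2 (0.50), Ncald (0.47), Ncam2 (0.46), Cd81 (0.46), Grik2 (0.45), Il1rapl1 (0.45), Enah (0.43), Rev3l (0.42) and Adgrl3 (0.42). Most are long genes, with a median length of 560 kb against 26.1 kb over the genes compared, and Col11a1 itself spans 190 kb. Whether intronic reads, which long genes give in number, were counted is not given in the sources used here. The lowest r was that of Lgals1 (-0.45), which encodes galectin 1. The nuclear RNA Malat1 had an r of 0.39 with the sum. When Col11a1 was left out of the sum, 6 of the 10 genes were again among the top 10, now led by Cd81 (0.46) and Wnt6 (0.37), and the median length of the top 10 was 74.0 kb.

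In adherent cells the genes most like the sum were Chl1 (0.33), Slc1a3 (0.30), Malat1 (0.29), Nkain2 (0.29), F3 (0.27), Mbp (0.25), Slc35f1 (0.24), Sox6 (0.22), Adgrb3 (0.22) and Gjc3 (0.22). When Col11a1 was left out of the sum, 3 of these 10 genes were again among the top 10, and Sox6, a partner of SOX9 in cartilage, was not. For the restricted genes alone in neurosphere cells, the leading genes were S100b (0.29), Wnt6 (0.28) and Pdzd2 (0.26), and 2 of the 10 leading genes were shared with those of the full sum. The median length of these 10 was 13.1 kb. S100b, a calcium-binding protein of glia and of chondrocytes, was at 161 CPM in the adherent library and 255 CPM in the neurosphere library.

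Of 18 other cartilage matrix genes, 7 had at least 50 UMIs. Among these, 5 were past 2-fold higher in the neurosphere library and 0 lower, with a median log2 ratio of 1.97, where 21.7% of all genes were past 2-fold higher and 11.7% lower. At a minimum of 200 UMIs, which drops list genes with fewer counts, 4 were higher and 0 lower, and the median was 3.66. The share over all genes was not computed at that minimum. Cnmd, which encodes the cartilage protein chondromodulin, was at 3.20 and 130 CPM (log2 ratio 5.34). Col9a2, the remaining chain of collagen IX, was at 5.08 and 105 CPM (4.37), so that all 3 collagen IX genes were higher in the same library. Matn2, a matrilin of many tissues, was at 8.42 and 106 CPM (3.66), Col27a1, a fibrillar collagen of cartilage, at 14.7 and 56.7 CPM (1.95), and Hapln1, the link protein of aggrecan, at 0.583 and 2.28 CPM (1.97). Matn4 (-0.72) and Snorc (-0.22) were within 2-fold. Cartilage genes of the list such as Chad and Clec3a were at 0 UMIs in both libraries, and Matn3 had 9 in each. Ucma and Mia, also under 50 UMIs, were seen in a smaller share of thinned neurosphere than adherent cells.

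The chondrogenic transcription factors split. Sox9, the main factor of cartilage, had 0 UMIs in all called cells of both libraries. Over the kept cells this allows up to 0.0648 CPM in the adherent library and 0.0462 CPM in the neurosphere library. Sox6 was at 151 and 754 CPM (log2 ratio 2.32), whereas Sox5 was at 8.06 and 2.80 CPM (-1.52). Sox8, a close relative of Sox9, was at 0.410 and 60.5 CPM (7.20), and Sox10, the third of that group, at 167 and 194 CPM (0.22).

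Of the 11 factors tested, 3 were past 2-fold higher and 5 lower, with a median of -0.98, beside 21.7% of all genes higher and 11.7% lower. Under TMM scaling, where Trps1 was no longer past 2-fold, 2 were higher and 6 lower, beside 16.1% and 14.5% of all genes. When the total included mitochondrial and ribosomal genes, the counts were 3 and 3, beside 29.5% and 9.38%. At a minimum of 200 UMIs they were 3 and 4 with a median of -0.38, and the share over all genes was not computed there. Trps1, a zinc finger factor of the growth plate, was the third on the higher side (1.03). Runx2, which drives chondrocyte hypertrophy and Col10a1, was at 10.2 and 4.57 CPM (-1.15). Runx1 (-1.78), Mef2c (-1.87) and Foxc2 (-1.06) were the other lower ones, and Foxc1 (-0.98) and Pax9 (0.44) were within 2-fold. Per cell, Sox6 went from 4.02 UMIs per 5000 in neurosphere cells with none of the restricted genes to 5.14 in those with 3 or more. Over the same cells Sox8 was at 0.302 and 0.438, Sox5 at 0.0111 and 0.0208, Sox10 at 1.01 and 0.781 and Runx2 at 0.0238 and 0.0104, and the last bin holds 96 cells.

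Enzymes that build chondroitin sulfate, the sugar chain of aggrecan and of brain proteoglycans, had 6 of 19 tested genes past 2-fold higher and 0 lower, with a median of 0.76, beside 21.7% and 11.7% of all genes. With mitochondrial and ribosomal genes in the total 9 were higher, as were 29.5% of all genes. Papss2, which makes the sulfate donor and is needed in cartilage, was highest (2.47), and the sulfotransferase Chst3 was lowest (-0.49). Brain proteoglycans and their partners had 6 of 9 higher and 1 lower. Cspg5, a neural proteoglycan, was at 1.94 and 69.7 CPM (5.16), Bcan, which encodes brevican, at 11.4 and 315 CPM (4.79), and Ncan, neurocan, was the lowest (-1.23). Bcan is of the same proteoglycan family as Acan, and had 20455 neurosphere UMIs where Acan had 38.

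Of the collagen assembly genes, 3 of 22 tested were past 2-fold higher and 4 lower, with a median of -0.06, beside 21.7% of all genes higher and 11.7% lower. Serpinh1, the chaperone of collagen folding, was highest (1.45), at 147 and 401 CPM, and the prolyl hydroxylase P3h2 was lowest (-2.76). Matrix degradation genes, proteases and their inhibitors, had 2 of 12 higher and 9 lower. All 4 tissue inhibitors of metalloproteinases were among the lower ones, with Timp3 the lowest (-3.64) and Timp1 at 605 and 82.0 CPM (-2.88), and the protease Ctsk was highest (1.44). Of growth plate signalling genes, 1 of 6 was higher (Bmpr1b, 3.19) and 1 lower (Fgfr3, -3.09). Ihh had 2 and 8 UMIs, and Pthlh and Gdf5 had none.

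Markers of other cell types were measured alongside. Among fibroblast markers, 5 of 5 tested were past 2-fold higher in the neurosphere library, with a summed level of 6.78 and 566 CPM. Of all genes 21.7% were past 2-fold higher and 11.7% lower. Dcn, which encodes decorin, was highest (11.33, 8.85 to 16.63, from 1 and 3606 UMIs), Fap was lowest (1.15), and Col1a1 was at 2.51 and 329 CPM, while Col1a2, the partner chain of collagen I, had 1 and 23 UMIs and Thy1 0 and 7. Per neurosphere cell, the fibroblast markers were at 2.68 UMIs per 5000 in cells with none of the restricted genes and 3 in those with 3 or more. Their part in the levels above was not tested.

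Notochord cells also express collagen II. Of the notochord markers, the factors T, Noto, Shh and Foxa2 had 0 to 2 UMIs per library, and the epithelial keratins Krt8 (9.59) and Krt18 (7.91), which notochord shares with many tissues, were both higher. Osteoblast markers had 1 of 3 tested higher (Alpl, 1.49) and 1 lower (Phex, -1.59), and the defining gene Bglap had 2 and 9 UMIs. Oligodendrocyte precursor markers had 5 of 7 higher and 0 lower, from Gpr17 (9.33, 6.85 to 14.64, from 1 and 904 UMIs) to Pdgfra (-0.44), with a summed level of 435 and 2130 CPM. The shares over all genes were 21.7% higher and 11.7% lower.

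Astrocyte markers had 0 of 5 higher and 2 lower, where 21.7% and 11.7% of all genes were, from S100b (0.66) to Slc1a3 (-2.20). The immune marker with enough counts was Cd68 (-1.30), with Ptprc at 1 and 0 UMIs and Tyrobp and C1qa at 0 in both, and the vascular one was Pecam1 (1.28), with Cdh5 at 0 in both. Among the G2 and mitosis markers the highest was Cdc20 (0.61) and the lowest Tpx2 (-0.63).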

How the data were processed

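Per the labels and the study's methods, 3′ single-cell libraries (v3 chemistry) were processed with Cell Ranger 7.0.1 against mm10, and the authors deposited filtered matrices holding unnormalized UMI counts. Whether intronic reads were counted is not given in the sources used here. With the limits of the study's filter, 13 mitochondrial and 101 ribosomal protein genes were removed, then cells with under 1000 UMIs or under 1250 (adherent) or 2250 (neurosphere) genes. This kept 5051 and 4276 cells. The study's own cell counts, 5073 and 4300, were reached when the same limits were applied before the genes were removed, an order that was run as an alternative. Scrublet in scanpy 1.11.5 marked 1 adherent and 0 neurosphere doublets, so it did not work as a caller here and no cell was removed.

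UMIs were summed per library as CPM with exact Poisson intervals, and log2 ratios (neurosphere over adherent) with conditional binomial intervals. Genes at 0 in 1 library took 3 counts as the floor. Correlations and shares of cells used cells thinned to 5000 UMIs. Clusters came from Seurat 5.3.0 and TMM factors from edgeR 4.0.16. Gene positions are from GENCODE M21 (32158 identifiers matched) and promoters from RefSeq. The floor equals 0.0648 CPM in the adherent and 0.0462 CPM in the neurosphere library.

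The members, lists and grouping into broad and restricted genes were chosen with earlier results of these data known. Genes named were the 10 members, the other cartilage genes and factors with at least 50 UMIs, the highest and lowest gene of every other list, and the 10 genes most like the sum in each library. Others, such as Sox9, Timp1, Col1a1, Bcan and the defining markers at or near 0, were named after their values were seen.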

Additional observations from a re-analysis of the deposited data

Results flagged for a closer look

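The cell filter removed 713 adherent and 675 neurosphere barcodes, whose median mitochondrial share was 48.8% and 87.0%. They are outside the comparisons above, with 392008 and 574706 UMIs left after gene removal and a median of 301 and 106 UMIs per barcode. The sum in the removed neurosphere barcodes was above that in the removed adherent ones, with intervals that did not overlap. Col2a1 was at 134 CPM (106 to 167) against 102 CPM (72.9 to 139), and Col10a1 and Acan were at 0 in both. In the removed neurosphere barcodes the members summed to 6189 CPM, against 2441 CPM in the removed adherent ones. Kept cells had 4005 CPM in the neurosphere and 720 CPM in the adherent library, so the ratio between cultures was smaller in the removed barcodes. Col11a1 was at 3273 CPM, Col9a1 at 1263 CPM, Col11a2 at 609 CPM, Col9a3 at 425 CPM, Matn1 at 193 CPM and Cytl1 at 67.9 CPM, with 1962, 153, 115, 107, 0 and 0 CPM in the removed adherent barcodes.

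Comp stood out, at 224 CPM (187 to 267) from 129 UMIs in 36 removed neurosphere barcodes, where the kept neurosphere cells had 21.6 CPM. Its level in the removed adherent barcodes was 2.55 CPM, from 1 UMI. In the kept cells Comp was highest in the cluster with the lowest median depth.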

How the results depend on the processing

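The count of members past 2-fold higher was 8 under each of the 10 alternatives run. The log2 ratio of the summed members was 2.26 under TMM, 2.69 when the total included mitochondrial and ribosomal genes, 2.45 over all called cells, 2.50 with the neurosphere gene limit in both libraries and 2.63 in thinned cells. Without the leading cluster of each library, chosen after seeing the data, it was 2.34. Among single genes, Col10a1 and Matn1, set against the floor, moved to 5.45 and 10.12 in thinned cells, Comp to 4.58 without these clusters, and Col2a1 ran from 0.40 (TMM) to 0.95 (thinned), always under 2-fold. TMM took the median of all genes from 0.32 to 0.11 and the share past 2-fold higher from 21.7% to 16.1%; keeping mitochondrial and ribosomal genes took them to 0.54 and 29.5%, and turned the median of the collagen assembly list to 0.15 and of the G2 and mitosis markers to 0.022.

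Neurosphere cells with 3 or more members were 72.1% at 3000 UMIs, 96.0% without thinning and 62.8% without Col11a1. The leading neurosphere cluster held 17.8% of member UMIs with the members left out of the variable genes and 19.5% without the deepest cells. Growth plate genes past 2-fold higher were 3 rather than 1 with mitochondrial and ribosomal genes in the total. They were 0 at a minimum of 200 UMIs, where fewer were tested and no share over all genes was computed. Under TMM matrix degradation genes were 1 rather than 2, collagen assembly 2 rather than 3 and fibroblast markers 4 rather than 5. Oligodendrocyte precursor markers were then 4 rather than 5 and brain proteoglycans 5 rather than 6. No paired analysis was possible because each culture has 1 library. Depth limits what can be said of Acan and of the genes at 0 adherent UMIs, and every value describes these 2 libraries alone.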
